A study of Mus musculus with 2 samples.

Results

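The genes described here are 8 members of the signature of Lgr5-positive intestinal stem cells: Lgr5, Ascl2, Smoc2, Olfm4, Gkn3, Igfbp4, Rgmb and Cdca7. They were taken by name from a table of transcript counts in single cells, in which all 8 were found among 15745 genes. The cells came from mouse intestinal organoids, epithelial structures grown in vitro, and were profiled by droplet-based 3' RNA sequencing, where each transcript is counted once through its unique molecular identifier (UMI). There was 1 library from organoids at day 3 and 1 from organoids at day 5. The study concerns how organoids break symmetry, and the libraries allow the signature to be compared between a time before and a time after the change of medium at day 3.

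Both libraries came from wild type C57BL/6 material with a labelled age of 10 weeks. Both cultures were kept in ENR, a medium with EGF at 100 ng/ml, Noggin at 100 ng/ml and R-spondin at 500 ng/ml. Up to day 3 it also held 20% medium conditioned with Wnt3a and Y-27632, an inhibitor of ROCK, at 10 µM, and up to day 1 CHIR99021, an inhibitor of GSK3B, at 3 µM. From day 3 to day 5 the cells received ENR alone. Day of culture and medium therefore cannot be told apart. With 1 library per day there is no test between days, and all intervals below cover counting error only.

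Stem cells at the base of the intestinal crypt divide continuously and renew the epithelium, and their state depends on Wnt signalling. Lgr5 is a receptor for R-spondins, secreted proteins that strengthen the Wnt signal, and is itself a Wnt target gene. Ascl2 is a transcription factor that works with beta-catenin and TCF proteins to switch on the stem cell programme. The other members are used as markers of the same cells: Smoc2 is a secreted matrix-associated protein, Olfm4 a secreted glycoprotein that is abundant in human crypt stem cells and in mouse small intestine, and Gkn3 a secreted gastrokine. Igfbp4 is a secreted protein that binds insulin-like growth factors, Rgmb a co-receptor for bone morphogenetic proteins, and Cdca7 a nuclear protein of dividing cells.

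All 8 are protein-coding genes on build GRCm38 (GENCODE M21). Lgr5 lies on the minus strand at chr10:115450311-115587780 and Ascl2 on the minus strand at chr7:142966829-142969264. Smoc2 lies on the plus strand at chr17:14279506-14404790, and Rgmb on the minus strand of the same chromosome at chr17:15803188-15831039. Gkn3 is at chr6:87383256-87388935 (minus), Igfbp4 at chr11:99041244-99054392 (plus), Cdca7 at chr2:72476159-72486893 (plus) and Olfm4 at chr14:79984081-80023139 (plus).

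The bases just upstream of the annotated start are shown for Ascl2, Gkn3, Igfbp4 and Cdca7, because these 4 genes were higher in Lgr5-positive cells of both libraries at the depth used for the main comparison (below). The sequences come from RefSeq (GRCm38.p6), where 6 of the 8 members had an entry, and run 5′ to 3′ on the gene's own strand. Capitals mark CAAAG or its reverse complement CTTTG, the core letters of TCF/LEF binding sites. They span chr7:142969265-142969514 (Ascl2, minus), chr6:87388936-87389185 (Gkn3, minus), chr11:99040994-99041243 (Igfbp4, plus) and chr2:72475969-72476158 (Cdca7, plus).
Ascl2: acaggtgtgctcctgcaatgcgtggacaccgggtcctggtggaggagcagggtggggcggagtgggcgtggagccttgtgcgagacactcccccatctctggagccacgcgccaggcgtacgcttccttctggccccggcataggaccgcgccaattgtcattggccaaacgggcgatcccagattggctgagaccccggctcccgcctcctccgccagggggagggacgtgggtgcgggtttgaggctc
Gkn3: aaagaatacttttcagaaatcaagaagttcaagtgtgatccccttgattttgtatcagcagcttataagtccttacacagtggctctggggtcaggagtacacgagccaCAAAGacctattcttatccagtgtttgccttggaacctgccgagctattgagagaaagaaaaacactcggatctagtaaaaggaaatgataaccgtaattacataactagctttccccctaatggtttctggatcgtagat
Igfbp4: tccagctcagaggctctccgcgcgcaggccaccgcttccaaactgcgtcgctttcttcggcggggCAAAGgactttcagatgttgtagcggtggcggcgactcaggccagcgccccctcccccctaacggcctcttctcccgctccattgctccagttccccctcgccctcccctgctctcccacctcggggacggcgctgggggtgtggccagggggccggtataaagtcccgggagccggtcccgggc
Cdca7: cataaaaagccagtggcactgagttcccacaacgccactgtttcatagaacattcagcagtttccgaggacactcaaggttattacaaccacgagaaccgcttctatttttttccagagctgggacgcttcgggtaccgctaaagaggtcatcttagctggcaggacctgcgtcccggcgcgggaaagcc
The letters occurred 1 time each upstream of Gkn3 and Igfbp4 and 0 times upstream of Ascl2 and Cdca7. Among 27025 mouse promoters, 48.8% held them in the same 250 bases, and 41.2% in the 190 bases used for Cdca7. The palindrome CAGCTG, a form of the E-box bound by basic helix-loop-helix factors, was in 0 of the 4 windows and in 12.8% of promoters over 250 bases. A match in letters is a description and shows no binding.

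The day 3 library held 28764033 UMIs in 798 cells (median 32063.5 per cell, minimum 17601), and the day 5 library 17349076 UMIs in 1065 cells (median 13549, minimum 6777). Mitochondrial transcripts made up 5.38% and 6.64% of these UMIs. The epithelial marker Vil1 stood at 119 CPM (counts scaled to 1000000 UMIs) at day 3 and 164 CPM at day 5. Immune markers were in the table for 4 of 7 genes and stromal or endothelial markers for 2 of 9, and in no cluster of cells did either list sum to more than 5.18 CPM. Cells are numbered in the files and carry no barcode sequences, so barcodes shared between the libraries could not be counted.

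Summed over all cells, 4 of the 8 members were lower at day 5 and 0 were higher, where a call needed a 1.5-fold difference or more and exact Poisson 95% intervals that lay apart. By the same rule 31.5% of 12782 genes were lower and 12.3% higher, and the median log2 ratio of day 5 over day 3 was -0.33 over all of these genes and -0.33 over the 8 members. The members called lower were Ascl2, Igfbp4, Rgmb and Cdca7. Lgr5, Smoc2, Gkn3 and Olfm4 were not called in either direction.

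The receptor gene Lgr5 (ENSMUSG00000020140) had 460 UMIs at day 3 and 320 at day 5, or 16.0 CPM (95% interval 14.6 to 17.5) and 18.4 CPM (16.5 to 20.6). The intervals overlapped, and the log2 ratio was 0.21 (-0.0045 to 0.41). Among day 5 cells at or above the lowest day 3 depth, 320 of 1065 cells, the log2 ratio of Lgr5 was 0.78 and the gene was called higher, whereas weighing each cell alike gave a log2 ratio of -0.18. The direction of Lgr5 between the days thus depended on which cells carried the weight.

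Ascl2 (ENSMUSG00000009248), the transcription factor of the group, had the largest ratio of the 4 members called. It had 293 UMIs at day 3 and 79 at day 5. Its level was 10.2 CPM (9.05 to 11.4) in the earlier library and 4.55 CPM (3.61 to 5.68) in the later one, and the log2 ratio was -1.15 (-1.54 to -0.80). It was lower under each way of scaling or choosing cells to which the calling rule was applied, including the deeper day 5 cells (log2 ratio -0.59). Cdca7 (ENSMUSG00000055612), the gene of dividing cells, stood at 102 CPM (98.2 to 106) before the medium change and 54.2 CPM (50.8 to 57.8) after it, for a log2 ratio of -0.91 (-1.02 to -0.80). The proliferation gene Mki67 was at 137 and 49.9 CPM. All 15 of 15 proliferation genes on a fixed list were lower at day 5, beside 31.5% of all genes.

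Among the secreted proteins, only Igfbp4 was called. Igfbp4 (ENSMUSG00000017493) stood at 33.0 CPM (30.9 to 35.2) at day 3, against 21.6 CPM (19.4 to 23.9) at day 5, and its log2 ratio was -0.61 (-0.79 to -0.44). Smoc2 (ENSMUSG00000023886) had 115 CPM (111 to 119) at day 3, against 109.6 CPM (105 to 115), and the intervals overlapped. The gastrokine gene Gkn3 (ENSMUSG00000030048) had 20.0 CPM (18.4 to 21.7), against 19.3 CPM (17.2 to 21.4), which also overlapped. Smoc2 and Gkn3 thus differed little on this scale, with log2 ratios of -0.07 and -0.06 that became 0.24 and 0.26 with TMM factors (trimmed mean of M values), which shift all genes by 0.31. Olfm4 (ENSMUSG00000022026) had 7 UMIs in the whole day 3 library and 12 in the day 5 library, or 0.243 CPM (0.0978 to 0.501), against 0.692 CPM (0.357 to 1.21), and never more than 1 UMI in a cell. At these counts Olfm4 could not serve to mark cells.

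The co-receptor gene Rgmb (ENSMUSG00000048027) stood at 12.8 CPM (11.6 to 14.2) at day 3, against 8.53 CPM (7.21 to 10.0) at day 5, with a log2 ratio of -0.59 (-0.87 to -0.31) at the edge of the 1.5-fold limit. The calls of Rgmb and Igfbp4 were lost with TMM factors, at log2 ratios of -0.27 and -0.30, and without the cells of Enterocyte-like clusters, at -0.58 and -0.50. With TMM factors 17.1% of all genes were lower. Ascl2 and Cdca7 were then still called, at -0.84 and -0.60.

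**Figure D1:**
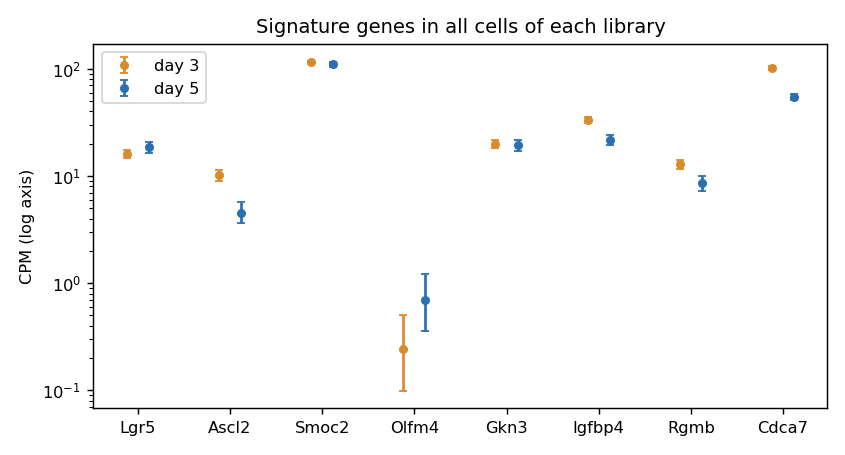
Level of each signature gene in all cells of a library, in CPM on a log axis, with exact Poisson 95% intervals, day 3 in orange and day 5 in blue. The intervals are apart for Ascl2, Igfbp4, Rgmb and Cdca7, which were lower at day 5, and overlap for Lgr5, Smoc2, Gkn3 and Olfm4.

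To compare how widely the genes were detected, every cell was reduced by random draw to 9800 UMIs, which kept 798 cells at day 3 and 882 at day 5 and left out 183 shallower cells at day 5. At this depth Lgr5 had a UMI in 96 cells at day 3, or 12.0% (exact binomial 95% interval 9.85 to 14.5), and in 117 cells at day 5, or 13.3% (11.1 to 15.7). Without thinning the shares were 26.7% and 16.3%, in libraries whose depths differ. At equal depth the intervals of Lgr5 overlapped, and the mean over all possible thinnings, from a formula, was 12.0% and 11.5%. At 15000 UMIs, which only 421 of the 1065 day 5 cells reach, the shares of Lgr5 were 16.3% (13.8 to 19.0) and 25.2% (21.1 to 29.6), with intervals apart. At 6700 UMIs, which keeps every cell, they were 7.89% on both days. The order of the days for Lgr5 thus depended on whether the shallower day 5 cells were kept.

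Ascl2 was found in 6.64% of cells (5.01 to 8.60) at day 3 and 4.65% (3.36 to 6.25) at day 5, and the intervals overlapped. Cdca7 was the member whose breadth fell most in percentage points, from 52.6% (49.1 to 56.1) to 28.8% (25.8 to 31.9). Rgmb had 10.8% (8.71 to 13.1) and 6.35% (4.83 to 8.17), with intervals apart. Of the secreted proteins, Smoc2 was found in 59.5% of cells (56.0 to 63.0) at day 3 and in 51.9% (48.6 to 55.3) at day 5, also with intervals apart. Gkn3 had 11.0% (8.94 to 13.4) and 11.5% (9.42 to 13.7), and Igfbp4 18.8% (16.1 to 21.7) and 13.7% (11.5 to 16.2). Both pairs of intervals overlapped, by a narrow margin for Igfbp4. At 6700 UMIs, which keeps every cell, Igfbp4 was in 15.8% (13.3 to 18.5) and 8.64% (7.02 to 10.5), with intervals apart. At 15000 UMIs it was in 27.1% and 26.1%, with overlapping intervals. The 15000 UMI depth, with its smaller set of day 5 cells, turned the order of Smoc2, to 73.2% (70.0 to 76.2) at day 3 and 80.5% (76.4 to 84.2) at day 5, and set Gkn3 at 14.3% (11.9 to 16.9) and 24.7% (20.7 to 29.1). Rgmb had overlapping intervals there (15.5% and 13.8%) and at 6700 UMIs (6.89% and 5.26%). Cdca7 was the only one of the 8 with a lower share at day 5 and intervals apart at each of the 3 depths. Olfm4 was left with 2 cells at day 3 and 3 at day 5.

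Free RNA in droplets can give a UMI to a cell that does not express a gene, so the shares were set beside those in Enterocyte-like cells, absorptive cells that should lack stem cell transcripts. These were 55 cells at day 3, with a median of 23692 UMIs before thinning, and 138 at day 5, with a median of 12436. Lgr5 had a UMI in 7.27% of them (4 cells, interval 2.02 to 17.6) at day 3 and in 0.725% (1 cell, 0.0183 to 3.97) at day 5. The day 3 interval overlaps the share of Lgr5 in all cells, and the day 5 interval does not. Ascl2 had 0 cells in both, which allows a share of up to 5.45% and 2.17%, taking 3 cells as the limit of a count of 0. For Smoc2 the shares were 34.5% and 18.8%, below those of all cells but far from 0, so Smoc2 did not separate these cells sharply. For Cdca7 they were 12.7% and 4.35%. For Gkn3, Igfbp4 and Rgmb they ran from 1.82% to 5.45% at day 3 and from 0.725% to 2.17% at day 5.

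The UMIs of most members sat in a minority of cells. At day 3, 5.89% of cells (47 cells) held 50% of the Lgr5 UMIs, and at day 5 4.23% (45 cells) did, in libraries of unequal depth. Leaving Olfm4 aside, Gkn3 was the most concentrated member by this measure at day 3, where 27 cells, or 3.38%, held 50% of its UMIs and the 10 highest cells held 27.6%. An even spread of its thinned UMIs over cells would have given a UMI to 18.3% of day 3 cells, against the 11.0% seen. For Lgr5 the even share was 14.5%, against 12.0% seen, and for Rgmb 11.3%, against 10.8%. At the other end, Smoc2 needed 21.9% of day 3 cells and 12.6% of day 5 cells to reach 50% of its UMIs.

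**Figure D2:**
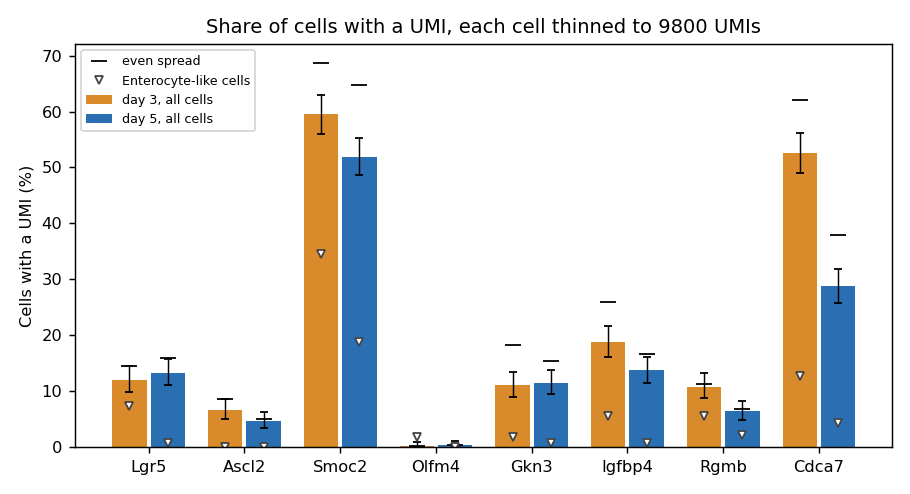
Percent of cells with at least 1 UMI of each gene after thinning to 9800 UMIs, as bars with exact binomial 95% intervals, with the share an even spread of the same UMIs would give (dashes) and the share in Enterocyte-like cells (triangles). Cdca7 drops from 52.6% to 28.8%, while Lgr5 is at 12.0% and 13.3%.

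To place the genes among the cells, each library was clustered with the 8 members left out. A cluster was named only from fixed markers, so most of the 11 clusters at day 3 and the 10 at day 5 have only a number. Values by cluster are a description, since the other genes of these cells formed the clusters. At day 3, Lgr5 was at 43.8 CPM (37.4 to 51.0) in cluster 1, which was Stem-like, at 42.3 CPM (32.6 to 53.9) in cluster 10 and at 37.8 CPM (28.9 to 48.6) in the mixed secretory cluster 9. These intervals overlapped and lay apart from the other 8 clusters. Clusters 1, 10 and 9 held 35.9%, 14.1% and 13.3% of the library's Lgr5 UMIs.

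The other members did not divide those 3 clusters alike. Ascl2 was at 43.6 CPM (33.8 to 55.3) in cluster 10 and 27.6 CPM (22.6 to 33.4) in cluster 1, but at 8.68 CPM (4.75 to 14.6) in the secretory cluster. Cdca7 showed the same order, with 259, 195 and 105 CPM, and so did Igfbp4, with 104, 74.6 and 31.0 CPM. Gkn3 and Rgmb instead were as high in the secretory cluster as in the others within their intervals, at 58.9 CPM for Gkn3 and 23.6 CPM for Rgmb. Secretory cells of day 3 thus carried Lgr5, Gkn3 and Rgmb with less Ascl2, Igfbp4 and Cdca7. Cluster 6, led by the stress response genes Trib3 and Chac1, had Lgr5 at 12.0 CPM (7.89 to 17.4) but Ascl2 at 0.887 CPM (0.107 to 3.21) and Gkn3 at 2.22 CPM (0.720 to 5.18). Cluster 4, led by the replication-related genes Ccne2 and Ung, had Lgr5 at 2.35 CPM (0.946 to 4.85) with Smoc2 at 126 CPM (114 to 140).

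At day 5 no cluster was Stem-like by the markers. Lgr5 was at 48.0 CPM (39.7 to 57.6) in cluster 5, led by Ccne2 and Tcf19, at 47.9 CPM (33.7 to 66.0) in the mixed secretory cluster 9 and at 30.9 CPM (24.7 to 38.3) in cluster 4, which was Proliferation-like. The name of cluster 4 came from its leading genes and not from the highest level of proliferation genes. These summed to 1520 CPM there, against 3690 CPM in cluster 5 and 5188 CPM in cluster 6, both unnamed. Enteroendocrine genes summed to 2724 CPM in cluster 4, against 76.4 CPM in the mixed secretory cluster. How many cells carried this sum was not counted, so it may come from few cells and not from the cluster at large. In the whole thinned day 5 library, 1 cell held 84.4% of the 463 UMIs of the enteroendocrine gene Ghrl. Clusters 5 and 4 held 36.6% and 26.2% of Lgr5 UMIs, also the 2 largest shares of Ascl2, Cdca7, Igfbp4, Smoc2, Gkn3 and Rgmb UMIs. Unlike at day 3, Ascl2 in the secretory cluster, at 11.7 CPM (5.33 to 22.1), was not below clusters 4 and 5, at 10.3 CPM (6.85 to 14.9) and 9.03 CPM (5.66 to 13.7), and all 3 intervals overlapped. Lgr5 and Ascl2 had 0 UMIs in clusters 1 and 3, which were unnamed and carried enterocyte genes at 48444 and 24177 CPM in sum. Cluster 8, led by Slc23a3 and Sycn, carried Lgr5 at 20.7 CPM (13.7 to 29.9), Gkn3 at 32.5 CPM (23.6 to 43.6) and Smoc2 at 188 CPM (166 to 213), with Smoc2 in 84.0% of its thinned cells. Mki67 was at 5.2 CPM there, against 131 CPM in cluster 5 and 188 CPM in cluster 6. Lgr5 with Smoc2 and Gkn3 was therefore also present in day 5 cells with little Mki67.

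**Figure D3:**
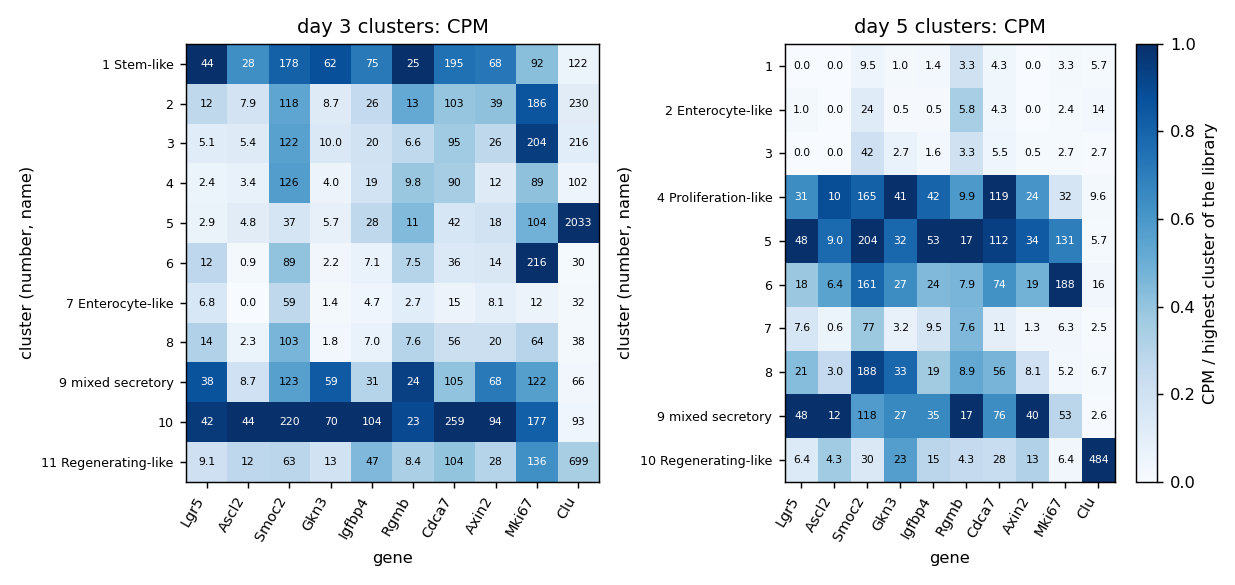
CPM of 7 signature genes and of Axin2, Mki67 and Clu in each cluster of day 3 (left) and day 5 (right), shaded by the fraction of that gene's highest cluster in the same library. At day 3 Lgr5 is highest in clusters 1, 10 and 9, and at day 5 in clusters 5, 9 and 4.

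To ask which members stayed with Lgr5 in the same cells, cells with at least 1 thinned Lgr5 UMI (Lgr5-positive) were compared with those that had 0 (Lgr5-negative). At 9800 UMIs many cells that express Lgr5 will have none, so the negative cells are a mixture. At day 3 there were 96 positive and 702 negative cells, with median depths before thinning of 32398.5 and 31960.5 UMIs. At day 5 there were 117 and 765, with median depths of 19772 and 14214. Enterocyte list genes summed to 865 CPM in positive and 1526 CPM in negative cells at day 3, and to 3015 and 19396 CPM at day 5. Proliferation genes summed to 3451 and 3220 CPM at day 3, and to 2558 and 1150 CPM at day 5, so that at day 5 positive cells also differed from negative cells in differentiation, cell division and depth. Mitochondrial shares were 5.01% and 5.75% at day 3 and 5.22% and 6.77% at day 5.

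Of the 6 members with at least 20 thinned UMIs besides Lgr5, 4 were higher in Lgr5-positive cells at day 3 and 5 at day 5, and none was lower. By the same rule 0.796% of 9920 genes were higher and 2.41% lower at day 3, and 9.84% of 9826 were higher and 9.37% lower at day 5. The members called on both days were Ascl2, Gkn3, Igfbp4 and Cdca7. Smoc2 was called at day 5 alone, and Rgmb on neither day. Which members were called changed with the depth. At 6700 UMIs Ascl2 was called on neither day (1.94 and 2.70) and Igfbp4 at day 5 alone (1.44 at day 3), while Smoc2 and Rgmb were called on both, beside 0.76% of all genes at day 3 and 8.12% at day 5. At 15000 UMIs all 6 were called but Smoc2 at day 3 (1.49), beside 1.1% and 2.85% of all genes. Gkn3 and Cdca7 were the members called on both days at all 3 depths. Olfm4 had 0 and 2 thinned UMIs in positive and negative cells at day 3 and 1 and 2 at day 5, too few to test.

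Ascl2 was at 22.3 CPM in positive and 7.27 CPM in negative cells at day 3, a ratio of 3.07 (95% interval for counting error 1.75 to 5.21). At day 5 it was at 16.6 and 3.60 CPM, a ratio of 4.60 (2.42 to 8.59). Only 13.5% of positive cells at day 3 and 14.5% at day 5 had an Ascl2 UMI, so most Lgr5-positive cells showed none at this depth. With 2 or more Lgr5 UMIs, in 21 cells at day 3 and 27 at day 5, Ascl2 reached 34.0 and 26.5 CPM.

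Gkn3 was at 41.5 and 17.7 CPM in positive and negative cells at day 3, a ratio of 2.34 (1.59 to 3.38), and at 50.6 and 12.0 CPM at day 5, a ratio of 4.21 (2.98 to 5.93). Averaged by formula over every possible thinning, the ratio was 4.04 at day 3, outside the interval of the draw, and 3.91 at day 5. The difference between the days in the drawn ratios of Gkn3 is thus absent from the averages.

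Igfbp4 was at 59.5 and 26.7 CPM at day 3, a ratio of 2.23 (1.62 to 3.02), and at 55.8 and 12.8 CPM at day 5, a ratio of 4.36 (3.13 to 6.04). It was in 30.2% of positive cells against 17.2% of negative cells at day 3, and in 37.6% against 10.1% at day 5. Cdca7 was at 166 and 89.7 CPM at day 3, a ratio of 1.85 (1.54 to 2.21), and at 135 and 35.5 CPM at day 5, a ratio of 3.81 (3.11 to 4.66). For both genes the day 5 interval lay above that of day 3, and the levels of the days were further apart in negative than in positive cells. Without the day 5 clusters that carried enterocyte genes (below), the day 5 ratios were 2.19 for Igfbp4 and 1.85 for Cdca7. No replicates exist to test this difference between the days.

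Smoc2 was at 136 CPM in positive and 116 CPM in negative cells at day 3, a ratio of 1.17 (0.966 to 1.42), and at 208 and 90.6 CPM at day 5, a ratio of 2.30 (1.98 to 2.67). It was in 69.8% of positive and 58.1% of negative cells at day 3, and in 84.6% and 46.9% at day 5. The day 5 ratio of Smoc2 was 1.69 among the deeper cells kept at 15000 UMIs, and 1.38 and not called in cells above the proliferation median. By the formula its ratio was 1.48 at day 3, above the interval of the draw but under the fold limit, and 2.19 at day 5.

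Rgmb was at 13.8 and 12.1 CPM at day 3, a ratio of 1.15 (0.585 to 2.07), and at 12.2 and 6.40 CPM at day 5, a ratio of 1.91 (0.971 to 3.52). These intervals rest on 13 and 14 UMIs in positive cells. Without thinning, where deeper cells are more often positive, Rgmb was called higher on both days, at ratios of 1.76 and 2.63, when 1.65% and 13.8% of all genes were. The formula gave 1.99 and 2.55. The draws at other depths called Rgmb on both days, at 2.86 and 2.92 with 6700 UMIs and at 2.37 and 2.64 with 15000. The draw at 9800 UMIs was thus the one of the 3 in which Rgmb was not called.

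Across genes, the formula put the 6 members among the genes with the largest ratios at day 3. Of 9892 genes Gkn3 ranked 11th, Ascl2 ranked 15th, Igfbp4 ranked 28th, Rgmb ranked 48th, Cdca7 ranked 56th and Smoc2 ranked 210th. At day 5, of 9795 genes, Igfbp4 ranked 16th, Ascl2 ranked 19th, Gkn3 ranked 21st, Cdca7 ranked 37th, Rgmb ranked 193rd and Smoc2 ranked 406th. Ascl2, Gkn3, Igfbp4 and Cdca7 were thus within the first 56 genes in both libraries. Rank here is the order of the ratio, which sparse counts make uncertain.

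**Figure D4:**
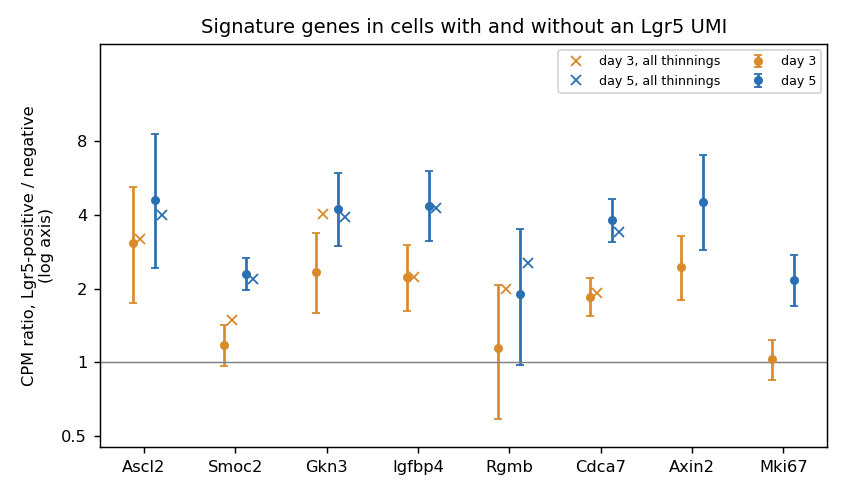
Ratio of CPM in Lgr5-positive over Lgr5-negative cells on a log axis for 6 signature genes, Axin2 and Mki67, with 95% intervals for counting error (circles) and, for the signature genes, the mean over all possible thinnings (crosses). Ascl2, Gkn3, Igfbp4 and Cdca7 lie above 1 with their whole intervals on both days, Smoc2 does so at day 5, and Mki67 is at 1.03 at day 3 and 2.16 at day 5.

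The ratios were taken again within cells that are more alike, a choice made after seeing the data. At day 5, without the Enterocyte-like cells and cluster 1, the ratios were 3.26 for Ascl2, 3.02 for Gkn3, 3.19 for Igfbp4, 2.79 for Cdca7 and 1.73 for Smoc2. All 5 were still called, beside 4.6% of all genes called higher in the same comparison. Leaving out the mixed secretory cells as well gave 2.87, 3.25, 2.98, 2.89 and 1.70 for the same genes in that order, beside 4.66% of all genes higher. Clusters 3 and 7, which carried enterocyte genes at 24177 and 13102 CPM, were still among these cells. Without them too, 112 positive and 330 negative cells were left, and 3 members were called beside 0.779% of all genes: Igfbp4 at 2.19 (1.56 to 3.07), Gkn3 at 2.03 (1.43 to 2.88) and Cdca7 at 1.85 (1.499 to 2.27). Ascl2 was then at 2.15 (1.13 to 4.04), Smoc2 at 1.296 (1.10 to 1.52) and Rgmb at 1.06 (0.518 to 2.05), none of them called. The day 5 ratios were thus smaller the more cells with enterocyte genes were left out.

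When day 3 cells were split at the median of their summed proliferation UMIs, 33 after thinning, each part held 48 Lgr5-positive cells. Among cells at or below the median, Igfbp4 had a ratio of 4.27, Ascl2 4.01, Gkn3 3.73 and Cdca7 1.76, beside 1.05% of all genes called higher. Among cells above it, Igfbp4 had 1.13, Gkn3 1.49, Ascl2 2.48 and Cdca7 1.88, and of these only Cdca7 was called, beside 0.41% of all genes. The difference between these parts was not tested. At day 5 the median was 3 UMIs, so the split there falls at a far lower level of these genes and is not like that of day 3. At day 5, 101 of the positive cells were above the median, where Gkn3 had a ratio of 2.06, Igfbp4 2.23 and Cdca7 1.90, and these 3 were called beside 0.958% of all genes. Ascl2, at 2.48, and Smoc2, at 1.38, were not called there. The 16 positive cells at or below the median were few: Cdca7 (10.0), Igfbp4 (9.62) and Smoc2 (3.46) were called, Gkn3 (11.1) was not, and Ascl2 had 0 UMIs in them. The share of all genes called in these cells was not taken, so the calls there cannot be weighed against it.

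Single cells showed the same partial overlap. At day 3 the other 7 members had a mean of 2.21 genes with a UMI per Lgr5-positive cell and 1.51 per negative cell, and at day 5 a mean of 2.49 and 0.971. None of the 7 was seen in 9.38% of positive and 19.5% of negative cells at day 3, and in 3.42% and 43.1% at day 5. At least 3 were seen in 38.5% and 17.7% of them at day 3, and in 49.6% and 9.54% at day 5. By both shares positive and negative cells were further apart at day 5 than at day 3. The negative cells of day 5 include those rich in enterocyte genes, with 19396 CPM in sum against 3015 CPM in positive cells. The counts per cell were not taken without them, so the wider gap cannot be told apart from this difference in cell types.

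Pairs of genes gave the same picture. Lgr5 and Ascl2 were seen together in 13 cells at day 3, against 6.38 expected if they were spread independently, and in 17 against 5.44 at day 5. Lgr5 and Gkn3 shared 24 cells at day 3, against 10.6 expected, and 34 against 13.4 at day 5. Lgr5 and Rgmb shared 11 cells at day 3, against 10.3 expected, and 14 against 7.43 at day 5. The intervals of seen over expected were 0.531 to 1.90 and 1.03 to 3.16, in the draw in which Rgmb was not called. Pairs without Lgr5 also shared more cells than that count: Ascl2 and Gkn3 were together in 17 cells at day 3, against 5.84, and in 15 against 4.70 at day 5. Without Enterocyte-like cells and day 5 cluster 1, the ratio of seen to expected cells for Lgr5 with Ascl2 went from 2.04 to 1.98 at day 3 and from 3.13 to 2.33 at day 5. For Lgr5 with Rgmb it was 0.973 at day 3 and 1.55 at day 5 in those cells.

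**Figure D5:**
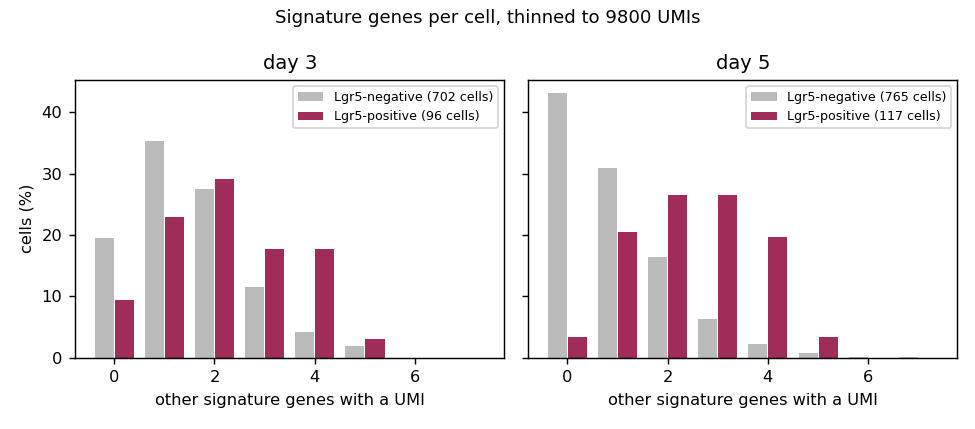
Percent of Lgr5-negative (grey) and Lgr5-positive (red) cells by how many of the other 7 signature genes had a UMI after thinning to 9800 UMIs, day 3 left and day 5 right. At day 5, 43.1% of negative cells and 3.42% of positive cells had none of them.

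Other stem cell genes on a fixed list followed Lgr5 in part. Of 21 tested, 6 were higher in Lgr5-positive cells at day 3 and 15 at day 5, and none was lower. By the same rule 0.796% of all genes were higher at day 3 and 9.84% at day 5. Without each gene's highest cell the counts of these stem cell genes were 4 and 11. The list had median log2 ratios of 0.34 and 1.53 against -0.04 and 0.10 for all genes. At day 3 Axin2, a feedback inhibitor and target of Wnt signalling, had 64.8 and 26.5 CPM in positive and negative cells, a ratio of 2.45 (1.80 to 3.29), and Aqp4, a water channel, a ratio of 2.37. The others called were Soat1 (2.16), Clca3b (1.68), Lrig1 (1.60) and Sox9 (1.55), and Lrig1 and Sox9 lost the call without their single highest cell. At day 5 Axin2 was at 31.4 and 6.94 CPM, a ratio of 4.53 (2.87 to 7.06), and Mex3a, an RNA-binding protein of slowly cycling stem cells, at a ratio of 4.79. All 15 of 15 proliferation genes were higher in positive cells at day 5 and 0 of 15 at day 3, beside 9.84% and 0.796% of all genes.

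Of the Wnt and R-spondin genes, 1 of 16 tested was higher in positive cells at day 3 (Axin2), beside 0.796% of all genes. Higher at day 5 were 5 of 15, beside 9.84% of all genes. These 5 were Axin2, Znrf3 (3.86), Myc (2.75), Ccnd1 (2.62) and Rnf43 (2.25). Without each gene's highest cell 4 of them stayed called, and Rnf43, at 2.05, did not. Znrf3 and Rnf43 are membrane ubiquitin ligases that remove Wnt receptors and are held back by R-spondin with Lgr receptors. The Wnt receptor gene Fzd5 was lower in positive cells on both days, at ratios of 0.638 and 0.598. The related R-spondin receptor gene Lgr4 was not tied to Lgr5, at 0.970 and 0.799. Between the days, 9 of 19 Wnt genes were lower at day 5 and 1 was higher, beside 31.5% and 12.3% of all genes, and with TMM factors 7 were lower and 2 higher. Axin2 went from 35.3 to 13.7 CPM.

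Markers of Paneth cells also moved with Lgr5, whereas those of goblet and enteroendocrine cells did not do so on both days. Paneth cell genes were higher in Lgr5-positive cells for 7 of 7 tested at day 3 and 9 of 10 at day 5, beside 0.796% and 9.84% of all genes. Without each gene's highest cell, 6 and 8 of these stayed so. Defa24, an antimicrobial alpha-defensin, had ratios of 6.84 and 3.81, and Mmp7, the protease that activates defensins, 4.94 and 3.42. In the mixed secretory clusters, 10 cells at day 3 and 9 at day 5 were Lgr5-positive. Paneth genes summed to 8698 CPM in this cluster at day 3, and to at most 112 CPM in any other. At day 5 the sums were 55838 CPM and at most 465 CPM. The Paneth calls therefore need not hold for Lgr5-positive cells outside these clusters. Goblet cell genes were higher for 2 of 12 tested and lower for 2 at day 3. At day 5 they were higher for 0 of 11 and lower for 5. Without each gene's highest cell, 1 of the 2 goblet genes higher at day 3 stayed so, and 1 was higher at day 5. Enteroendocrine genes were higher for 4 of 7 and lower for 1 at day 3, and higher for 0 of 6 and lower for 2 at day 5. These calls rested largely on single cells. Without each gene's highest cell, 1 of the 4 stayed higher at day 3 and 2 genes were lower. At day 5, 0 were then lower. Enterocyte genes were lower for 8 of 14 at day 3, or 6 without each gene's highest cell, and for 15 of 15 at day 5. Genes of regenerating epithelium were lower in positive cells for 7 of 9 tested at day 3 and 2 of 7 at day 5, beside 2.41% and 9.37% of all genes. Among those lower at day 3 was Clu, a marker of revival stem cells, at 134 and 376 CPM, a ratio of 0.357 (0.296 to 0.426). At day 5 Clu had a ratio of 1.04 (0.613 to 1.67). The part of secretory and regenerating cells in the ratios of the signature genes was not tested, beyond the values without secretory cells above.

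The genes whose pattern was most like that of Lgr5 by this ratio, among 7977 genes with at least 50 thinned UMIs at day 3, were led by products of secretory cells. They were Ghrl (8.60), Defa24 (6.84), Lyz1 (6.00), Clps (5.12), Cck (4.99), Mmp7 (4.94), Rnase1 (4.68), Reg4 (4.62), Defa17 (4.31) and Rgcc (3.70). The values of Ghrl and Cck, which encode gut hormones, came from 1 cell each, without which they were 0.259 and 0.250. Lyz1 fell to 1.99 without its highest cell, which held 30.3% of its UMIs, and Defa24 to 4.18. Clps, Mmp7, Reg4 and Defa17 were then between 2.88 and 3.45. Rgcc, a regulator of the cell cycle, had 2.58% of its UMIs in its top cell and had a ratio of 3.45 without it. These 10 genes were picked by their ratios in 1 draw, whereas the ranks of the members above came from the formula. By the formula the 10 ratios ran from 2.33 for Clps to 7.41 for Defa24. Ghrl was then at 4.02 and Mmp7 at 3.63, below the draw, and Cck at 5.95 and Defa17 at 6.00, above it. The lowest in the draw were F3 (0.127), Zg16 (0.111), Cyp2b10 (0.105) and Plat (0.0881), and Krt20 had 0 UMIs in positive cells.

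At day 5, among 7711 genes, Rgcc led with a ratio of 7.25. It was followed by Ccl9 (5.15), Defa37 (4.95), Ttc27 (4.73), Axin2 (4.53), Cenph (4.49), Aunip, Cenpu and Ncapg (4.36 each), and Igfbp4 (4.36), itself a member of the signature. Cenph and Cenpu are centromere proteins and Ncapg a condensin subunit. Without its highest cell Ccl9 was at 2.67, and the other 9 were at 3.68 or more. These genes were picked by their ratios in 1 draw. Averaged by formula over every possible thinning, the 10 ratios ran from 1.92 for Ncapg to 6.24 for Rgcc. Ttc27 was then at 2.15, Cenpu at 2.47 and Cenph at 2.70, below the draw, and Defa37 at 5.06, above it. In the draw Cyp2c29 was at 0.0194, and Msln, Lct, Mptx1 and Scin had 0 UMIs in positive cells.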

How the data were processed

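Single-cell 3' libraries of organoids at day 3 and day 5, 1 each, were analysed. The authors deposited UMI counts per gene and cell, made with Cell Ranger 1.3.0 on mm10 per the submitters' processing notes, and log2 values that, from the values, are log2 of depth-scaled counts plus 1. How cells and genes were filtered is not given in the sources used here. Gene IDs were matched to symbols in 15681 of 15745 cases.

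UMIs were summed per group of cells and given as CPM with exact Poisson 95% intervals. Log2 ratios add 0.5 UMI to each sum. A gene with at least 10 UMIs (days) or 20 thinned UMIs (Lgr5 comparison) was called at 1.5-fold with intervals apart. Ratio intervals are exact conditional ones and shares have Clopper-Pearson intervals. UMIs of a cell are not independent of its type, so intervals cover counting error only. Libraries were clustered separately without the 8 genes (scanpy 1.11.5, 2000 variable genes, 30 components, 15 neighbours, Leiden resolution 1). A name required 3 fixed markers of 1 type among the 25 leading genes of a cluster. Scrublet called 2 and 6 doublets, too few to count as working, and they were kept. TMM factors came from edgeR 4.0.16. The scripts were checked on simulated counts. Other software was Python 3.11.15, numpy 2.4.6 and scipy 1.17.1.

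Besides the 8 genes, the text names the 10 highest and 5 lowest ratios per library among genes with at least 50 thinned UMIs, leaving out mitochondrial, ribosomal and predicted genes, list members at the extremes, and Mki67, Axin2 and Clu. The members and gene lists were chosen with earlier results of these data known. Some further genes were named after their values were seen: the other list members in the text, the genes leading a cluster, and Vil1.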

Additional observations from a re-analysis of the deposited data

Results flagged for a closer look

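For 3 genes named by the list rule, the ratio of CPM in Lgr5-positive over negative cells was past the fold limit in opposite directions in the libraries, and the difference between the days was not tested. Ghrl, which encodes the hormone ghrelin, had a ratio of 8.60 at day 3 and 0.130 at day 5, with 52.4% and 84.4% of its thinned UMIs in 1 cell. Guca2a, the guanylin gene of goblet and absorptive cells, had 1.92 and 0.181. Its call at day 3 was lost without its highest cell, at a ratio of 0.945. Sct, which encodes the hormone secretin, had 2.80 at day 3 and 0 UMIs in positive cells at day 5, a ratio of 0, and the day 5 call was lost without its highest cell.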

How the results depend on the processing

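No paired analysis was possible because each day had 1 library. Of 53 alternatives for the main counts, 39 stayed within 1.5 times. Of 308 alternatives for values other than the main counts, 208 stayed within the limit set for them and 100 moved past it. Among those for values of day 5 over day 3, 27 stayed and 29 moved. The 4 members lower at day 5 became 2 with TMM factors, 2 without Enterocyte-like cells, 2 without these and day 5 cluster 1, and 1 with day 5 cells at or above the day 3 minimum depth. The last setting and weighing each cell alike each gave 1 member higher, where the main count was 0. By the sign of the mean of the authors' log2 values alone, 7 were lower and 1 higher. The 4 members higher in Lgr5-positive cells at day 3 became 1 above the proliferation median, and the 5 at day 5 became 3 above it, 3 at or below it and 3 without all clusters that carried enterocyte genes. For day 5 cells at or below the median, no share of all genes stands beside the count. The count of 4 at day 3 and 5 at day 5 was the same at 6700 UMIs, with other members in it. Thinned to 6700 UMIs, 8 other stem cell genes were higher at day 5 in place of 15, and 1 member in place of 3 had the larger share of cells at day 5. The cause of these shifts was not tested. The members called between the days, and those called in the Lgr5 comparison, had log2 ratios of the same sign under all of these alternatives, although Ascl2 had 0 UMIs in the 16 positive cells at or below the proliferation median at day 5. The direction between the days did change for the levels of Lgr5, Smoc2 and Gkn3, and for the shares of the same genes. The log2 ratios of Smoc2 and Gkn3, -0.07 and -0.06, became 0.24 and 0.26 with TMM factors. At 6700 UMIs the share of Gkn3 was 8.65% at day 3 and 7.61% at day 5.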
